A study of Arabidopsis thaliana with 9 samples.

Results

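Leaves of biotin-watered bio4-1 mutants were compared with leaves of wild type plants, to ask what differs from wild type once the mutant has been given the vitamin it lacks. The comparison takes every array of both groups, 3 a side, or 6 of the 9 arrays of the study. All plants were Arabidopsis thaliana of ecotype Col-0, 5 weeks old, and each RNA came from the pooled rosette leaves of 5 plants. In bio4-1, a single T-DNA allele, the insertion lies in the 5' untranslated region of BIO4. The wild type group received weekly water, 1 L to a tray of 28 plants, and the biotin-watered bio4-1 group received 200 µM d-biotin in the same volume. The remaining 3 arrays, of bio4-1 given water alone, entered the estimate of the spread, and their values are given beside the comparison. Genotype and watering both differ between the groups. The water-grown bio4-1 values show the genotype difference under water. No wild type watered with biotin was among the samples, so the effect of biotin in wild type cannot be read. The labels do not say whether the pools of a group were grown separately. The p-values therefore cover only the spread between the pools that entered each test, which may be partly technical.

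Biotin is the prosthetic group of a small family of carboxylases. In plants these include acetyl-CoA carboxylase, which supplies malonyl-CoA for fatty acid synthesis in the chloroplast and the cytosol, and methylcrotonyl-CoA carboxylase of mitochondria, which takes part in the breakdown of leucine. BIO4 encodes an enzyme of an early step of biotin synthesis, and plants with a block in biotin synthesis can be rescued by biotin supplied from outside. No probe set was named for BIO4 in the annotation used, so its own level was not analysed here.

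Levels were read on Affymetrix ATH1 arrays, whose probe sets each consist of several oligonucleotides for 1 transcript, and are log2 values. A difference is biotin-watered bio4-1 minus wild type on that scale, so that 1 stands for a 2-fold difference. A gene was called when its limma p-value, adjusted over all 22746 tested probe sets by the Benjamini-Hochberg method, was under 0.05, and counts are over the 13356 genes that a probe set named alone. RCA, the activase of the carbon-fixing enzyme Rubisco, was the only measured gene of 8 written leaf markers. It lay between 13.77 and 13.86 on all 6 arrays. PYK10, an abundant root beta-glucosidase, lay between 2.98 and 3.26. The markers of flowers, seeds and meristems had no named probe set.

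The arrays numbered 1 stood apart in both groups. Over all tested probe sets, the wild type and biotin-watered arrays numbered 1 correlated with each other at 0.994, and the arrays numbered 2 and 3 did so at 0.988 to 0.996 in 6 pairs. For the 8 pairs that joined an array numbered 1 to an array numbered 2 or 3, the correlation was 0.950 to 0.967. On the arrays numbered 1 the mean 3' minus 5' difference of 3 control transcripts, a measure of RNA integrity and labelling, was 2.25 in wild type and 2.82 in biotin-watered bio4-1. For arrays 2 and 3 it was 1.71 and 1.52 in wild type and 1.70 and 1.51 in biotin-watered bio4-1. Actin and GAPDH carried this shift. Ubiquitin had 1.54, 1.56 and 1.48 on wild type arrays 1, 2 and 3, and 1.73, 1.66 and 1.67 on the biotin-watered arrays. The part of the shift in the differences below was not tested. Differences were tested over 3 arrays a side and again on arrays 2 and 3, a split chosen with earlier results of these data known. In the test on arrays 2 and 3, standard errors (SE) and p-values cover only the spread between those arrays within a group. They leave out the larger distance to the arrays numbered 1. Differences between the arrays numbered 1 stand beside the tested ones as values with no test.

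A single gene, MSRB9, was called over 3 arrays a side, which is 0.00749% of the genes tested in either direction and 0.00749% counted upward alone. With arrays weighted by how closely they followed their group means, the same comparison called 1646 genes, 927 higher and 719 lower. Those weights were estimated from the same values and not from a separate measure of quality. The test on arrays 2 and 3 called 573 genes, or 4.29%. Of these, 279 genes were higher in biotin-watered bio4-1 (2.09%) and 294 were lower (2.20%). EXO, XTH33 and EXLA1, genes of cell expansion and the cell wall, were among the largest rises there, and AT2G15020 and ORA47 the largest falls. Apart from MSRB9, the 10 largest rises had differences from −0.77 to 0.52 on the arrays numbered 1, and the 10 largest falls had −0.95 to 0.88. Over 3 arrays a side, 308 genes (2.31%) had an unadjusted p under 0.05. The count on arrays 2 and 3 fell whenever an array was left out. Each such fit has a single array in 1 group and fewer degrees of freedom. Lost power and dependence on that array therefore cannot be told apart in the count. Without wild type array 2 it was 2 genes and without wild type array 3 it was 76. Without biotin-watered array 3 it was 33, without biotin-watered array 2 it was 162, and without either of the bio4-1 arrays it was 226. Only MSRB9 and AT1G11380 were called without each of these 6 arrays in turn.

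MSRB9 (AT4G21850, chromosome 4) encodes a B-type methionine sulfoxide reductase, a class of enzymes that repair oxidised methionine in proteins. Its level in wild type was 4.72, 5.70 and 4.70 on arrays 1, 2 and 3. In biotin-watered bio4-1 it was 14.24, 13.93 and 13.91. The groups lay far apart on every array, and the level in biotin-watered plants was the highest of all probe sets on array 1 and within 0.58 of the highest on arrays 2 and 3. Wild type averaged 5.04 ± 0.57 (SD, n = 3) and biotin-watered bio4-1 averaged 14.03 ± 0.18 (SD, n = 3). The difference was 8.99 ± 0.26 (SE; limma adjusted p = 1.35e-05). At the 3 replicate numbers the differences were 9.52, 8.23 and 9.21, so this change was as large on the arrays numbered 1 as on the others. In water-grown bio4-1 the level was 14.12, 14.02 and 13.97, beside the biotin-watered values. At such a level the top of the array range limits the measured size. In bulk leaf RNA, more transcript per cell and more cells that hold the transcript cannot be told apart, for this gene and for all that follow.

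The measured genes next to MSRB9 on the chromosome had far smaller differences, from −0.11 to 1.83 on arrays 2 and 3. Of the 12 nearest genes, 6 on each side in the order of the reference annotation, 7 had a named probe set, and AT4G21870 alone of these was called on arrays 2 and 3. AT4G21870 was 1.83 ± 0.19 (SE) higher there (limma adjusted p = 0.00353), whereas biotin-watered array 1, at 6.45, was below wild type array 1, at 7.55. MSRB7 and MSRB8, tandem relatives of MSRB9, had no probe set named for them alone, and whether their transcripts bind the MSRB9 probes was not tested. The closest measured neighbour, AT4G21865, had 5.10, 5.27 and 5.17 in wild type and 5.03, 5.63 and 5.33 in biotin-watered bio4-1.

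**Figure D1:**
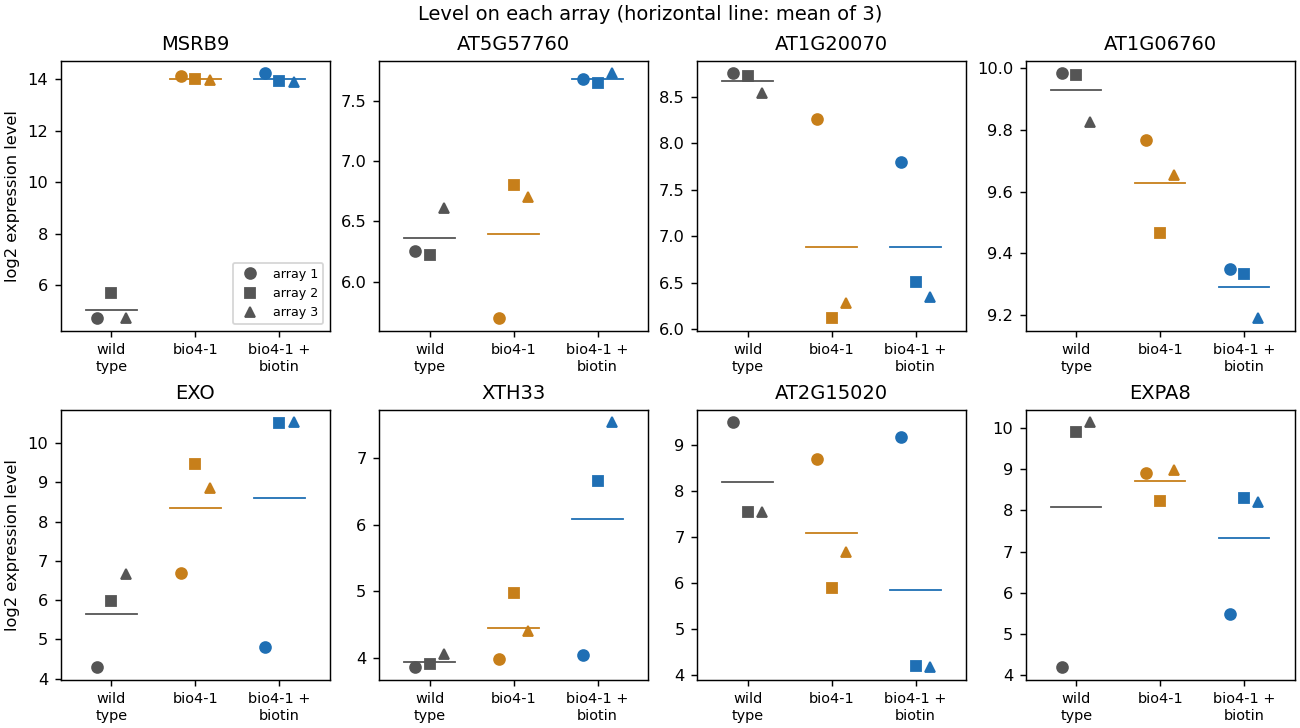
Log2 level of 8 genes on each of the 9 arrays, by group, with a circle for array 1, a square for array 2, a triangle for array 3 and a line for the mean of 3; each panel has its own vertical axis, which does not start at 0. MSRB9, AT5G57760, AT1G20070 and AT1G06760 kept wild type and biotin-watered bio4-1 apart with array 1 included, whereas in EXO, XTH33 and AT2G15020 the circles of these groups lay closer together than the squares and triangles did, and in EXPA8 their order was the opposite.

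Besides MSRB9, few called genes kept both the direction and the size of their difference on the arrays numbered 1. Of the 279 higher genes, 153 (54.8%) were also higher on the arrays numbered 1, and of the uncalled genes with a positive difference 52.1% were. Of the 294 lower genes, 167 (56.8%) were also lower there, beside 51.7% of the uncalled genes with a negative difference. The shares of called genes were thus near those of the other genes. The median difference of the higher genes was 0.83 on arrays 2 and 3, beside 0.04 between the arrays numbered 1, and for the lower genes these were −0.74 and −0.04. At least 2-fold differences on arrays 2 and 3 were found in 89 of the higher and 71 of the lower genes. Of these, 2 higher genes, MSRB9 and AT5G57760, and no lower gene did so in the same direction on the arrays numbered 1.

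Counted over all genes, 30 were at least 2-fold higher (0.225%) and 19 at least 2-fold lower (0.142%) on the arrays numbered 1. On the arrays numbered 2 these counts were 141 (1.06%) and 96 (0.719%), and on those numbered 3 they were 108 (0.809%) and 113 (0.846%). Large differences were thus fewest at replicate number 1. With all 3 arrays of a side lying above or below all 3 of the other, 419 genes were higher (3.14%) and 392 lower (2.94%). Of the called genes, 44 of the 279 higher (15.8%) and 60 of the 294 lower (20.4%) met this. Those shares are raised by the call itself, since all 573 called genes had groups that did not overlap on arrays 2 and 3. Groups of 3 can also fall apart by order alone, so non-overlap is a description here and not a test.

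**Figure D2:**
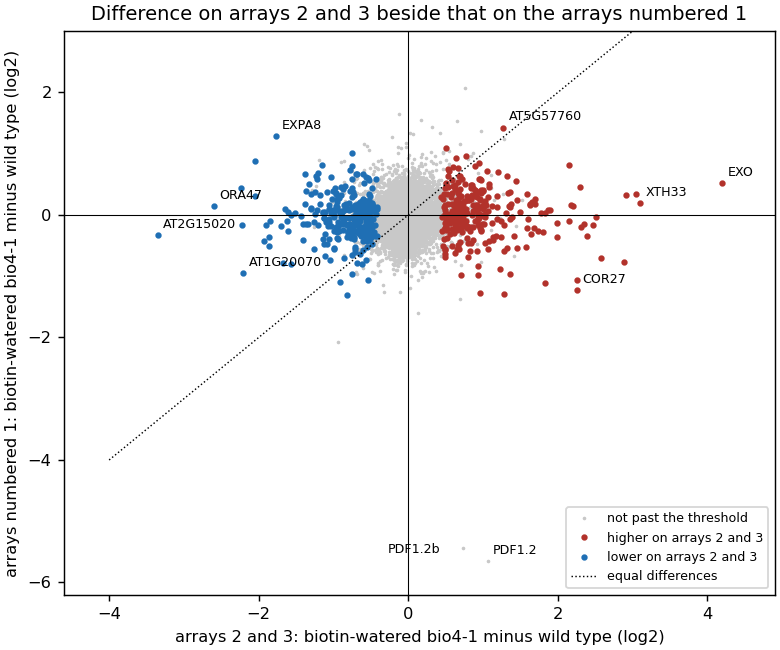
Each point is a gene, with the log2 difference fitted on arrays 2 and 3 across and the log2 difference between the arrays numbered 1 upward; genes called on arrays 2 and 3 are red where higher and blue where lower, and MSRB9 lies off the scale and is not drawn. Most coloured points lie along the horizontal axis, far from the dotted line of equal differences, and PDF1.2 and PDF1.2b lie at the bottom where the arrays numbered 1 differed by −5.65 and −5.43.

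Called genes with 1 direction at all 3 replicate numbers were ranked by the smallest of their 3 differences in size. The top 12 higher and 12 lower genes were taken, which does not require the 3 differences to be alike. None but MSRB9 was called over 3 arrays a side, where the limma adjusted p of the others was 0.9998. For 12 of the 24 genes, 5 higher and 7 lower, the 3 arrays of a side did not overlap with those of the other. Over all genes, 3.14% were apart in this way as higher and 2.94% as lower. The choice of the 24 genes itself favours such separation, so it is no further support for them. Other than MSRB9, their smallest differences in size ran from 0.58 to 1.12.

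AT5G57760 on chromosome 5 had 6.25, 6.22 and 6.61 in wild type and 7.68, 7.64 and 7.73 in biotin-watered bio4-1. Every biotin-watered array was above every wild type array. The differences were 1.43, 1.42 and 1.12, and on arrays 2 and 3 the fitted difference was 1.27 ± 0.14 (SE; limma adjusted p = 0.00415). Over 3 arrays a side it was 1.32 ± 0.28 (SE). Water-grown bio4-1 had 5.70, 6.80 and 6.70, and its own difference from the same wild type arrays was 0.33 on arrays 2 and 3 (limma adjusted p = 0.264). That smaller difference was not past the threshold, and the mutant groups were not tested against each other here.

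ARL, also called ARGOS-LIKE, promotes organ growth through cell expansion. It had 7.96, 8.25 and 7.95 in wild type and 8.72, 8.87 and 8.65 in biotin-watered bio4-1, with no overlap. The differences were 0.76, 0.62 and 0.70, the most even of the higher genes apart from AT5G25440. On arrays 2 and 3 ARL was 0.66 ± 0.13 (SE) higher (limma adjusted p = 0.0346). That call was lost whichever of the 6 arrays was left out. ULT1, a SAND-domain protein known to restrain the shoot and floral meristems, had 3.31, 4.11 and 4.31 in wild type and 4.11, 6.16 and 6.57 in biotin-watered bio4-1. Biotin-watered array 1 lay within the wild type range, and the difference was 0.81 there and 2.15 ± 0.16 (SE) on arrays 2 and 3 (limma adjusted p = 0.00151). EXPA16, an expansin that loosens cell walls, differed by 0.70 on the arrays numbered 1 and by 1.21 ± 0.23 (SE) on arrays 2 and 3 (limma adjusted p = 0.0289).

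The other higher genes carried only a locus code in the annotation. AT5G25440 differed by 0.84, 0.92 and 0.97 at the 3 replicate numbers, although wild type array 1, at 6.12, was below wild type arrays 2 and 3, at 7.26 and 7.16. AT1G21520 differed by 0.71 at number 1 and 1.05 on arrays 2 and 3, and AT4G35320 by 0.59, 1.19 and 0.75 at the 3 numbers. For both, the groups did not overlap. For AT4G20830, AT1G43910, AT4G39830 and AT3G57780 the smallest of the 3 differences was 0.68, 0.63, 0.58 and 0.58, and the groups overlapped when array 1 was included.

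Of the lower genes, AT1G20070 on chromosome 1 had the largest difference. It had 8.76, 8.73 and 8.54 in wild type and 7.80, 6.51 and 6.34 in biotin-watered bio4-1. All biotin-watered arrays were below all wild type arrays, with array 1 the nearest. The fitted difference was −2.21 ± 0.12 (SE) on arrays 2 and 3 (limma adjusted p = 0.000843), −0.95 on the arrays numbered 1 and −1.79 ± 0.60 (SE) over 3 arrays a side. Water-grown bio4-1 had 8.26, 6.11 and 6.29, a difference from wild type of −2.43 on arrays 2 and 3 (limma adjusted p = 0.000655).

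AT1G06760 had the most even difference of all named genes. Its level was 9.98, 9.98 and 9.83 in wild type and 9.35, 9.33 and 9.19 in biotin-watered bio4-1, and the groups did not overlap. The differences at the 3 replicate numbers were −0.64, −0.65 and −0.64, with −0.64 ± 0.12 (SE) on arrays 2 and 3 (limma adjusted p = 0.023). Over 3 arrays a side it was −0.64 ± 0.11 (SE), and here too the call on arrays 2 and 3 was lost whichever array was left out. Water-grown bio4-1, at 9.77, 9.46 and 9.66, lay between the other groups on each array number.

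UGT73B1 belongs to the UDP-glycosyltransferases, which attach sugars to small molecules. It had 5.25, 5.57 and 5.77 in wild type and 4.65, 4.97 and 4.96 in biotin-watered bio4-1, and differed by −0.60, −0.60 and −0.81. BGLU47, of the beta-glucosidase family, had 8.07, 7.36 and 7.29 in wild type and 6.77, 6.77 and 6.25 in biotin-watered bio4-1, and differed by −1.30, −0.59 and −1.04. In both genes the groups did not overlap. The other lower genes carried locus codes. AT5G02230, AT2G14520 and AT3G28140 did not overlap and had smallest differences in size of −0.80, −0.68 and −0.59. AT1G11700, AT3G15310, AT3G17640, AT2G20560 and AT5G16980 had −0.78, −0.73, −0.71, −0.65 and −0.59, with overlap once array 1 was included.

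The same wild type arrays serve the comparison of water-grown bio4-1 with wild type. Its differences on arrays 2 and 3 were 8.80 for MSRB9, 1.89 for AT1G21520, 1.61 for AT1G43910, 0.72 for ARL and −0.78 for AT2G14520. They were −0.02 for AT2G20560, 0.12 for AT5G16980, 0.06 for EXPA16 and 0.63 for ULT1, which were not past the threshold in it.

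**Figure D3:**
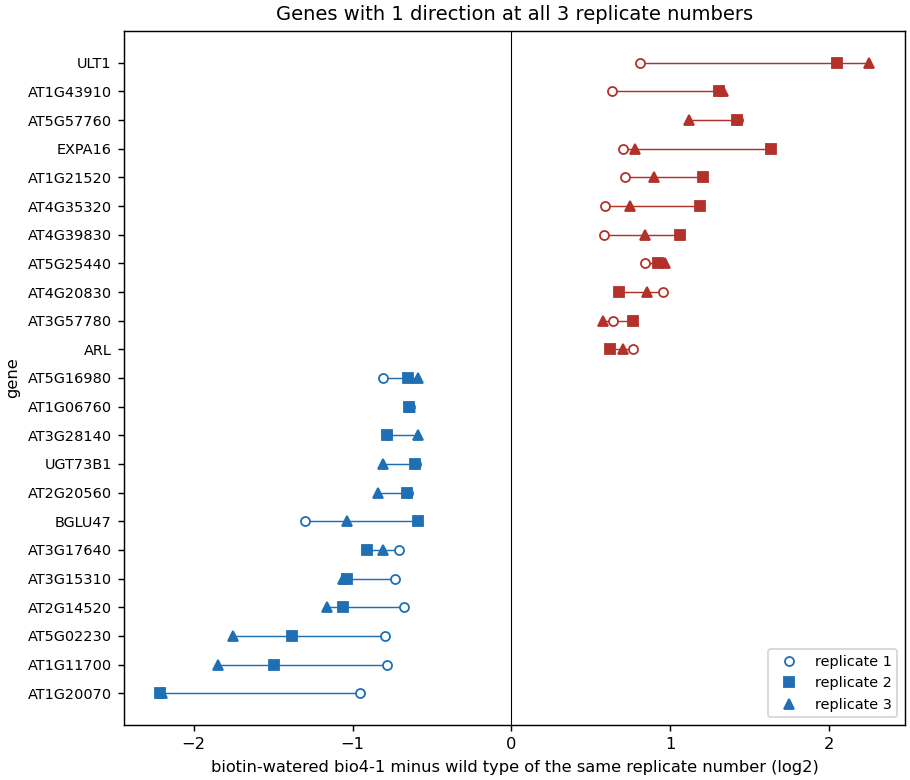
Log2 difference of biotin-watered bio4-1 from the wild type array of the same replicate number. Shown are the 11 higher (red) and 12 lower (blue) genes other than MSRB9 with 1 direction and the largest smallest difference at the 3 numbers. An open circle is replicate 1, a square replicate 2 and a triangle replicate 3. AT1G06760 and AT5G25440 have nearly coincident symbols, while ULT1 and AT1G20070 are nearest to 0 at replicate 1.

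Apart from MSRB9, the largest differences on arrays 2 and 3 were smaller in size or reversed on the arrays numbered 1. The rises include MSRB9 and the falls AT1G20070, both also in the set above. Of the 10 largest rises, 5 were above 0 and 5 below 0 on the arrays numbered 1, and of the 10 largest falls, 6 were below 0 and 4 above. EXO encodes EXORDIUM, a cell wall protein that promotes leaf growth and responds to brassinosteroids. Its level was 4.28, 5.98 and 6.66 in wild type and 4.80, 10.51 and 10.53 in biotin-watered bio4-1. On arrays 2 and 3 biotin-watered plants were far above wild type, and both arrays numbered 1 were low. The difference was 4.20 ± 0.25 (SE) on arrays 2 and 3 (limma adjusted p = 0.00108), 0.52 on the arrays numbered 1 and 2.97 ± 1.56 (SE) over 3 arrays a side. Water-grown bio4-1 had 6.70, 9.47 and 8.86, a difference of 2.85 on arrays 2 and 3 (limma adjusted p = 0.00441).

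XTH33 encodes a xyloglucan endotransglucosylase/hydrolase, an enzyme that cuts and rejoins xyloglucan chains of the cell wall. It had 3.86, 3.91 and 4.07 in wild type and 4.05, 6.65 and 7.53 in biotin-watered bio4-1. Wild type was at a low level on every array, and biotin-watered array 1 was too. The difference was 3.10 ± 0.29 (SE) on arrays 2 and 3 (limma adjusted p = 0.00276), 0.19 on the arrays numbered 1 and 2.13 ± 0.77 (SE) over 3 arrays a side. EXLA1, an expansin-like gene, had 4.78, 6.48 and 6.28 in wild type and 5.10, 9.30 and 9.29 in biotin-watered bio4-1, with a difference of 2.91 ± 0.16 (SE) on arrays 2 and 3 (limma adjusted p = 0.000843), 0.32 on the arrays numbered 1 and 2.05 ± 1.18 (SE) over 3 arrays a side. In water-grown bio4-1, XTH33 differed from wild type by 0.70 and EXLA1 by 0.67 on arrays 2 and 3, neither past the threshold (limma adjusted p = 0.26 and 0.0716).

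AT1G11380, which kept its call without each of the 6 arrays in turn, had 6.55, 7.19 and 6.97 in wild type and 6.52, 9.60 and 9.57 in biotin-watered bio4-1. Its difference was 2.51 ± 0.11 (SE) on arrays 2 and 3 (limma adjusted p = 0.000296) and −0.04 on the arrays numbered 1. The wild type and biotin-watered arrays numbered 1 were thus nearly equal for a gene whose call no single array of the 6 decided. The other large rises were 3.04 for AT1G50040, 2.89 for AT4G16563, 2.58 for AT5G05600, 2.47 for AT3G19680 and 2.39 for AT5G25240. On the arrays numbered 1 they were 0.35, −0.77, −0.71, −0.17 and −0.35, in the same order.

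AT2G15020 had the largest fall. It had 9.48, 7.54 and 7.54 in wild type and 9.16, 4.21 and 4.17 in biotin-watered bio4-1. Both arrays numbered 1 were high, and arrays 2 and 3 of biotin-watered bio4-1 were lowest. The difference was −3.35 ± 0.23 (SE) on arrays 2 and 3 (limma adjusted p = 0.00123), −0.33 on the arrays numbered 1 and −2.34 over 3 arrays a side. ORA47, an AP2/ERF transcription factor that activates jasmonate synthesis genes, had 4.99, 9.50 and 8.79 in wild type and 5.14, 6.58 and 6.52 in biotin-watered bio4-1. It was near the floor of its range on both arrays numbered 1, with a difference of 0.15 there and −2.60 ± 0.25 (SE) on arrays 2 and 3 (limma adjusted p = 0.00289), or −1.69 ± 1.21 (SE) over 3 arrays a side. PUB19, a U-box ubiquitin ligase of drought and abscisic acid responses, had a difference of −2.04 on arrays 2 and 3 and of 0.88 between the arrays numbered 1. The other large falls were −2.23 for AT1G60590, −2.23 for AT1G64500, −2.05 for AT5G03230, −1.92 for AT4G24700, −1.90 for AT5G01790 and −1.86 for AT1G76240. For AT5G01790 and AT1G76240 the 3 arrays a side did not overlap, with −0.17 and −0.51 on the arrays numbered 1.

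Some called genes went clearly the other way on the arrays numbered 1. EXPA8, an expansin, had 4.19, 9.90 and 10.13 in wild type and 5.48, 8.30 and 8.20 in biotin-watered bio4-1. Of these 6 arrays the 2 numbered 1 were the lowest, and biotin-watered bio4-1 was the higher there and the lower elsewhere. The difference was −1.77 ± 0.23 (SE) on arrays 2 and 3 (limma adjusted p = 0.00701) and 1.29 on the arrays numbered 1. COR27, a cold-induced regulator tied to the circadian clock, had 5.02, 6.87 and 7.28 in wild type and 3.79, 9.16 and 9.49 in biotin-watered bio4-1. Its difference was 2.25 ± 0.21 (SE) on arrays 2 and 3 (limma adjusted p = 0.00263) and −1.23 on the arrays numbered 1. Among higher genes, AT3G23550, AT3G10120 and AT3G59350 also had −1.29, −1.27 and −1.06 on the arrays numbered 1, beside 1.28, 0.95 and 2.25 on arrays 2 and 3. Among lower genes, AT5G50335, AT1G73480 and AT3G09440 had 1.02, 0.81 and 0.80, beside −0.75, −1.15 and −0.75.

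On the arrays numbered 1 alone, the largest difference after MSRB9 was that of PDF1.2, a plant defensin induced by jasmonate and ethylene, which was singled out after its values were seen. PDF1.2 had 11.42, 8.18 and 8.74 in wild type and 5.77, 9.12 and 9.94 in biotin-watered bio4-1. Wild type array 1 was the highest of the 6 and biotin-watered array 1 the lowest. The difference was −5.65 at replicate number 1, and 0.94 and 1.19 at numbers 2 and 3, where the limma adjusted p was 0.0947. PDF1.2b, a near-identical relative whose probe set is marked by the array design as shared between transcripts, had −5.43, 0.09 and 1.38, so these are not separate measurements. The next largest were AT4G19430, with −2.07, −0.94 and −0.93, and AT5G55450, with 2.07 at number 1 and 0.76 on arrays 2 and 3. Neither was called on arrays 2 and 3 (limma adjusted p = 0.146 and 0.0527).

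Gene lists were read on arrays 2 and 3, where the median difference over all genes was −0.004, with 0 on the arrays numbered 1. No list member other than MSRB9 was called over 3 arrays a side. Members are those with a probe set named for them alone, and 250 of 1156 written members were measured. The list counts below stand beside the 2.09% of all genes called higher and the 2.20% called lower.

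Of the measured genes of the biotin lists, none was called. All 5 written genes of biotin synthesis and attachment lacked a named probe set, and 5 of 12 genes of the carboxylase list were measured as its members. A further gene written in that list, accD, was measured only among the chloroplast-encoded genes, where its locus is spelled another way. It had 8.15, 8.08 and 7.44 in wild type and 8.20, 8.45 and 7.17 in biotin-watered bio4-1. On arrays 2 and 3 accD differed by 0.05 ± 0.43 (SE; limma adjusted p = 0.982). MCCA and MCCB encode the biotin-carrying and the other subunit of methylcrotonyl-CoA carboxylase. MCCA had 7.01, 7.17 and 7.51 in wild type and 7.16, 7.68 and 7.64 in biotin-watered bio4-1, with overlapping groups. Its difference was 0.33 ± 0.13 (SE) on arrays 2 and 3 (limma adjusted p = 0.277), with a 95% interval from 0.02 to 0.63 before adjustment. MCCB had 8.80, 8.96 and 9.01 in wild type and 8.75, 8.93 and 8.87 in biotin-watered bio4-1. It differed by −0.08 ± 0.10 (SE; limma adjusted p = 0.8), with an interval from −0.32 to 0.15. AT3G56130, AT3G15690 and AT1G52670, which the carboxylase list names BADC1, BADC3 and BADC2, differed by −0.14, −0.02 and −0.09. Over 3 arrays a side, the intervals were −0.22 to 0.76 for MCCA and −0.30 to 0.15 for MCCB.

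In the list of leucine and branched-chain amino acid breakdown, 4 of 10 members were measured, MCCA and MCCB among them, and none was called. IVD, which encodes isovaleryl-CoA dehydrogenase of leucine breakdown, differed by 0.09 and AT2G26800 by −0.19. Of 36 fatty acid genes only FATB and FaTA, thioesterases that release fatty acids from acyl carrier protein in the chloroplast, were measured. They differed by 0.26 and −0.32 (limma adjusted p = 0.207 and 0.141), and by −0.16 and 0.52 on the arrays numbered 1.

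Of 14 methionine sulfoxide reductase genes, 5 were measured, 1 was higher and 2 were lower. MSRB5 had 7.76, 9.51 and 9.28 in wild type and 7.92, 8.40 and 8.47 in biotin-watered bio4-1. MSRB6 had 5.48, 9.75 and 10.14 in wild type and 5.52, 8.55 and 8.30 in biotin-watered bio4-1. On arrays 2 and 3 these were lower by the side of the higher MSRB9, and on the arrays numbered 1 their groups were nearly equal. The differences on arrays 2 and 3 were −0.96 ± 0.12 (SE) for MSRB5 and −1.52 ± 0.15 (SE) for MSRB6 (limma adjusted p = 0.00591 and 0.00317), and those on the arrays numbered 1 were 0.15 and 0.04. In water-grown bio4-1 they were −1.21 and −1.51 on arrays 2 and 3. MSRA5 and MSRB3 were not called.

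Among genes of the growing cell wall, calls went both ways. Of 32 xyloglucan hydrolase genes 9 were measured. XTH33 and XTH16 were higher, XTH16 by 1.34 ± 0.17 (SE; limma adjusted p = 0.00698), and XTH32 was lower, with −0.68. Their median was 0.06. Of 36 expansin genes 18 were measured, 3 were higher and 2 lower, with a median of 0.09. EXLA2, of the expansin-like class with EXLA1, was 1.46 ± 0.19 (SE) higher, and EXPB1, a beta-expansin, was lower, with −1.12 (limma adjusted p = 0.00754 and 0.00264). On the arrays numbered 1, XTH16, XTH32, EXLA2 and EXPB1 had differences of 0.36, 0.18, 0.24 and 0.05. EXO was the one measured member of 8 in the exordium family. The 14 brassinosteroid genes of the list had no named probe set.

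Of 72 auxin genes 12 were measured, with calls in both directions. IAA18, an Aux/IAA repressor, was higher by 0.63 on arrays 2 and 3 but had −0.15 on the arrays numbered 1, with overlapping groups, while IAA29, of the same family, and HAT2, an auxin-induced homeodomain gene, were lower, with −1.11 and −0.88. IAA29 had 6.39, 7.24 and 7.44 in wild type and 6.08, 6.38 and 6.08 in biotin-watered bio4-1, and HAT2 had 8.35, 8.24 and 8.24 and 8.10, 7.53 and 7.20. In HAT2 the biotin-watered arrays lay below all wild type arrays. In IAA29 they barely did, with 6.383 on biotin-watered array 2 against 6.388 on wild type array 1. For IAA29 and HAT2 the difference at replicate number 1 was the smallest, at −0.31 and −0.25.

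Of 28 cold, drought and abscisic acid genes 6 were measured. LTI30, a dehydrin that accumulates in cold, had 9.35, 7.65 and 8.11 in wild type and 9.53, 9.64 and 9.50 in biotin-watered bio4-1. It was 1.69 ± 0.36 (SE) higher on arrays 2 and 3 (limma adjusted p = 0.0409) and 0.18 higher on the arrays numbered 1, with no overlap. PUB19 was the 1 lower member. COR15A, COR15B and COR47, which protect cells in cold, had 0.22, 0.15 and 0.51 and were not called.

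Of 31 jasmonate genes 6 were measured. ORA47 was lower and AT5G05600 higher, and the 4 others, PDF1.2 among them, were not called. Of 30 salicylic acid and immune genes 5 were measured. SAG101, a partner of EDS1 in immunity, was higher by 0.64 and the groups did not overlap at 5.93, 5.92 and 5.55 against 6.18, 6.40 and 6.33. WRKY53, a regulator of leaf senescence and defence, was lower, with 5.37, 7.46 and 6.89 in wild type and 5.62, 6.15 and 6.31 in biotin-watered bio4-1. Its difference was −0.95 ± 0.18 (SE) on arrays 2 and 3 (limma adjusted p = 0.029) and 0.25 on the arrays numbered 1. In water-grown bio4-1 WRKY53 had 9.70, 7.98 and 7.84, above both other groups on each array number. GRX480, OSM34 and PDF1.4 of that list had 0.04, 0.08 and 0.30 and were not called. Nor was any of the 3 measured senescence genes, SAG29, WRKY6 and WRKY22, with 0.11, −0.25 and 0.24.

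Of 15 touch and calcium genes 4 were measured and none was called. CML38, a calmodulin-like protein, had 5.24, 8.12 and 6.19 in wild type and 5.65, 8.47 and 7.86 in biotin-watered bio4-1, and differed by 1.01 ± 0.59 (SE; limma adjusted p = 0.508). STZ, a zinc finger protein of stress responses, CML37 and AT1G76640 (CML39) differed by −0.21, −0.30 and 0.00. Of 51 oxidative stress genes 12 were measured, all but 1 of them glutathione transferases of the tau class. GSTU27 was higher by 0.50 and GSTU16 and GSTU18 were lower, with −0.77 and −0.68. On the arrays numbered 1 these had −0.25, 0.10 and 0.14, each of the opposite sign.

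The clock, nitrate and NAC lists also had a single measured member each. GI, which encodes the clock protein GIGANTEA, had 9.54, 9.32 and 9.44 in wild type and 9.68, 9.90 and 9.72 in biotin-watered bio4-1. The groups did not overlap, but the difference of 0.43 was not past the threshold (limma adjusted p = 0.182). NRT2.5, a nitrate transporter of nitrogen-starved plants, had 7.69, 5.80 and 5.39 and 7.55, 6.95 and 5.37, and differed by 0.57 ± 0.44 (SE; limma adjusted p = 0.652). That difference was −0.23 without biotin-watered array 2 and 1.36 without biotin-watered array 3. In water-grown bio4-1 NRT2.5 had 7.89, 8.57 and 8.62, and differed from wild type by 3.00 on arrays 2 and 3 (limma adjusted p = 0.0157). NAC014, of a transcription factor family, differed by 0.08. Of 17 sugar starvation genes 2 were measured, and AKINBETA1, a subunit of the energy-sensing kinase SnRK1, was higher by 0.86 on arrays 2 and 3 (limma adjusted p = 0.0454) and had −0.41 on the arrays numbered 1.

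Photosynthesis genes showed little difference. Of 47 nuclear genes 9 were measured and none was called, with a median of −0.05. LHCB4.2, LHCB4.3, PSAE-1 and PSBY, of the photosystems and their antennae, had −0.17, 0.28, −0.07 and −0.10. Of 85 chloroplast-encoded genes 69 were measured, with a median of −0.14 on arrays 2 and 3, beside 0.16 between the arrays numbered 1. The median on arrays 2 and 3 was −0.34 without wild type array 3, −0.33 without biotin-watered array 2 and 0.10 without biotin-watered array 3. Among these genes, 21 had a positive difference on arrays 2 and 3, and rps18 alone was called. This gene of a chloroplast ribosomal protein had 9.39, 9.24 and 8.76 in wild type and 9.20, 7.94 and 8.15 in biotin-watered bio4-1, and differed by −0.96 ± 0.19 (SE; limma adjusted p = 0.035).

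Among the larger families, 47 of 58 UDP-glycosyltransferases were measured, with 2 higher, 7 lower and a median of −0.05. The higher members were UGT85A4 and UGT85A2, with 0.56 and 0.53, beside −0.31 and −0.04 between the arrays numbered 1. Among the lower, UGT76E11 had −1.33 ± 0.16 (SE), UGT71B1 had −0.85 and UGT74D1 had −0.80 on arrays 2 and 3, beside 0.51, 0.10 and −0.30 on the arrays numbered 1. UGT74D1, with 7.92, 7.80 and 7.77 in wild type and 7.62, 6.92 and 7.06 in biotin-watered bio4-1, did not overlap, as UGT73B1 did not. Of 225 cytochrome P450 genes, oxygenases of many plant compounds, 22 were measured, with 1 higher and 3 lower and a median of −0.18. CYP71B23 was higher by 0.90, with no overlap, and CYP71B26, CYP71B28 and CYP78A9 were lower, with −1.22, −0.60 and −1.01. The arrays numbered 1 had 0.81 for CYP71B23 and 0.08, 0.26 and 0.26 for the lower members, which overlapped. Of 67 WRKY genes 6 were measured. WRKY47 was higher by 0.97, with 5.76, 5.50 and 5.56 in wild type and 6.16, 6.64 and 6.36 in biotin-watered bio4-1 and no overlap. WRKY42 and WRKY53 were lower, WRKY42 by the side of a difference of 0.15 on the arrays numbered 1. The 116 MYB genes had no named probe set.

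**Figure D4:**
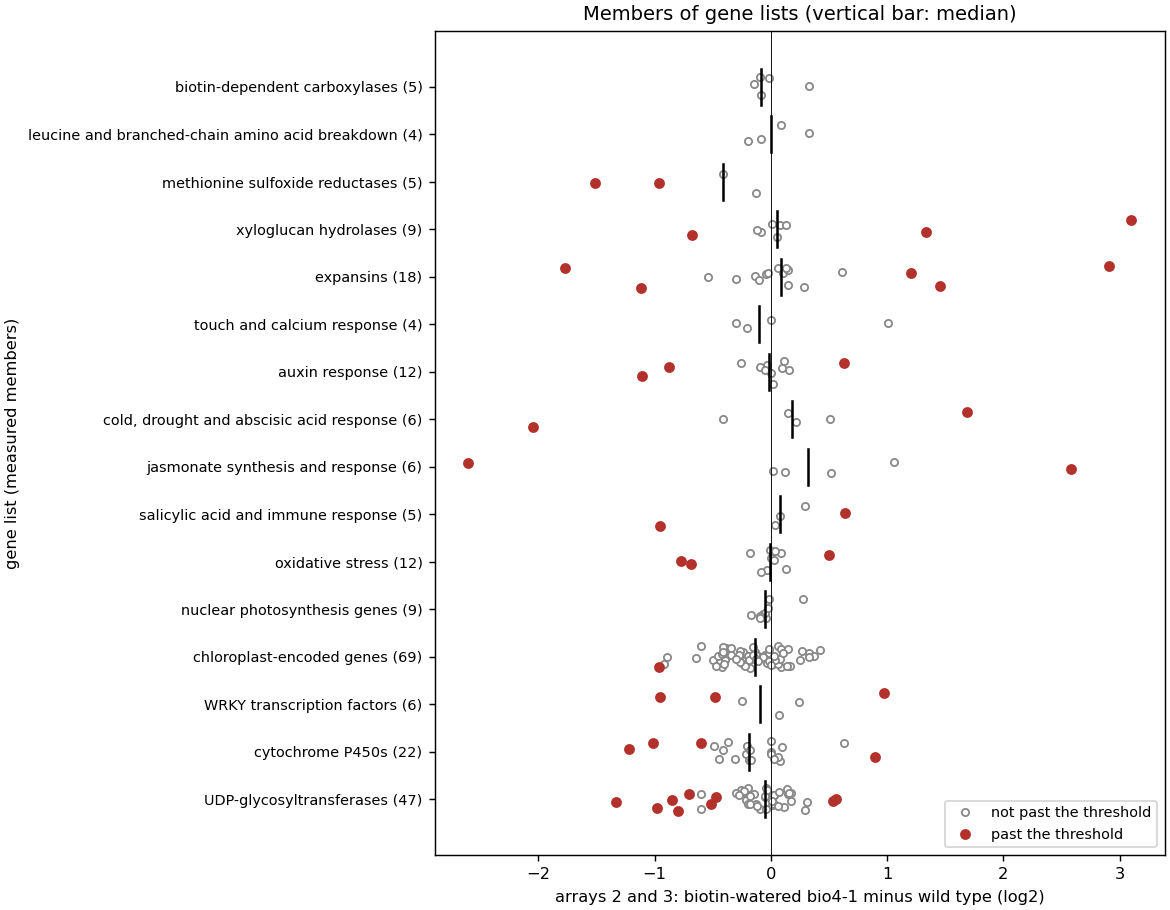
Log2 difference on arrays 2 and 3 for each measured member of the lists with 4 or more measured members; filled points passed the limma threshold, open points did not, the vertical bar is the list's median, and the vertical scatter within a list has no meaning. MSRB9 is not drawn, and accD is drawn with the chloroplast-encoded genes only. Called members lie on both sides of 0 in most lists, and the medians lie between −0.41 for the methionine sulfoxide reductases and 0.32 for the jasmonate genes, which was 0.14 to 0.52 with an array left out.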

How the data were processed

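The deposited table holds log2 expression values of 22810 probe sets on 9 arrays, made by RMA per the submitters' processing notes; its version is not given in the sources used here. Array medians ran from 5.95 to 6.07. After 64 control probe sets were left out, 22746 were tested. The probe annotation named 1 gene for 13513 of these, several for 503 and none for 8730, and 13436 matched a locus of TAIR10.1, used for names and gene order only. The probe set with the highest mean stood for a gene, which gave 13356 genes, 1559 with a symbol.

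limma 3.58.1 in R 4.3.3 fitted the 3 groups together without a block (2-sided tests), on all 9 arrays and on arrays 2 and 3. The number of arrays limits the precision. Deviations from the group means correlated at 0.834, 0.615 and 0.750 between wild type and biotin-watered arrays of the same number. Wild type array 2 with biotin-watered array 3 and wild type array 3 with biotin-watered array 2 also correlated, at 0.655 and 0.652, so the check separates number 1 from the others and not 2 from 3. That separation comes from the data, since the labels give only the numbers.

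The comparison, its split and the gene lists were chosen with earlier results of these data known. The genes named are every gene called on 9 arrays; the 12 higher and 12 lower genes called on arrays 2 and 3 with 1 direction at all 3 numbers and the largest smallest difference; 5 a side with the largest opposite difference at number 1; the 10 largest rises and falls whose arrays 2 and 3 did not overlap; the biotin genes; and each list's called members or, where more than 4 or none were called, the 4 with the largest difference over 3 arrays a side. Other list members and the largest differences at number 1 were named after their values were seen. Alternatives were other normalizations, filters on dim probe sets, variance models, array weights, samples, blocks, probe set choices and leaving out each array. Planned promoter motif shares were not run, because no promoter sequences were used here.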

Additional observations from a re-analysis of the deposited data

How the results depend on the processing

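Over 3 arrays a side, the count of 1 gene held with a 2-group fit, the replicate block, a block for the arrays numbered 1, either filter on dim probe sets, a mean-variance trend, median centring, quantile normalization and every probe set counted. Array weights gave 1646 genes, 927 higher and 719 lower, and the cause was not tested; arrays 2 and 3 alone, with fewer samples, gave 573. Leaving out each array gave 1 to 3 genes. The 3, without biotin-watered array 1, were MSRB9, AT1G72790 and AT1G59710; AT1G72790 and AT1G59710 had differences of 1.69 and 1.68 there and of −0.07 and 0.18 between the arrays numbered 1. On arrays 2 and 3, the 573 genes became 226 with a 2-group fit, which has fewer samples, 222 of them shared. The other alternatives gave 499 to 749, with 749 under the replicate block, which takes arrays of the same number as paired. Under all of these and the 2-group fit, 168 genes were called. The block changed no named call. Median centring gave 683, 357 higher and 326 lower. Leaving out each array lowered the count in every case, with a single array then in 1 group and fewer degrees of freedom. Of 76 named calls on arrays 2 and 3, 74 were lost without at least 1 array and none changed sign under the alternatives run. Of the 23 named genes not called there, 6 changed sign with an array left out, where AT1G52670 ran from −0.32 to 0.14, AT3G15690 from −0.096 to 0.063, AT3G56130 from −0.33 to 0.045, NAC014 from −0.085 to 0.25, NRT2.5 from −0.23 to 1.36 and STZ from −0.84 to 0.42; AT3G15690 was also 0.0042 with median centring. Over 3 arrays a side, 21 of 99 named genes changed sign under at least 1 alternative. None was among the 31 whose differences there are given above or that were picked by their smallest difference. List medians near 0 changed sign with scaling: auxin −0.01 to 0.01 and oxidative stress −0.003 to 0.02 with centring, and leucine breakdown 0.002 to −0.002 with quantile normalization. These shift the median of all genes by less than 0.1. Of 138 alternative list medians, 117 moved by less than the spread between replicates and 21, of 9 lists, by more, all but the nuclear photosynthesis median under quantile normalization with an array left out.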
